A study of Mus musculus with 47 samples.

Results

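A2m, Kirrel2, Slc13a5 and 2900052N01Rik are 4 genes, of 14221 in the deposited count table, picked for a large Day 5 response to FGF1 in hypothalami of Lep ob/ob mice, and their role in that response is unclear. They were chosen by their Day 5 values. A2m was the gene that rose most in FGF1-treated against vehicle-treated mice labelled non-diabetic, and Kirrel2, 2900052N01Rik and Slc13a5 were the genes that fell most. The choice was made among genes past the thresholds used here, whose mice did not overlap between the groups. A gene also had to reach, in either group, an average of 50 normalized counts when scaled to a library of 17.8 M counts. They are not the 4 largest changes in either direction, since Bmp4 (log2 FC = 1.85) and Gpr17 (1.80), among other genes that rose, moved more than the 3 that fell (−1.68 to −1.27). The Day 5 values below are therefore a description without a test, and the tests concern Days 1 and 42, which were measured in other mice.

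Bulk RNA-seq was performed on hypothalami of 47 male leptin-deficient Lep ob/ob mice, 1 strand-specific mRNA library per mouse, in 7 groups. Mice aged 11 weeks per the labels received a single intracerebroventricular (icv) injection of 3 µg FGF1, or of vehicle with pair-feeding to the intake of FGF1-treated mice. Day 1 had 10 mice with FGF1 and 4 with vehicle, Day 5 had 9 mice with FGF1 and 2 vehicle groups of 7, and Day 42 had 5 mice in either group. Vehicle-treated mice were labelled non-diabetic, except for 1 Day 5 group labelled diabetic, whereas the methods of the study describe diabetic mice throughout. All groups lack leptin from birth, so the FGF1 effect was measured only on that background, and the FGF1 was injected into a ventricle rather than into a chosen cell type. Where a sentence names only vehicle on Day 5, the group labelled non-diabetic is meant. In the deposited sample sheet the libraries of each day carry a preparation code of their own, so day and preparation cannot be told apart, while FGF1 and vehicle were compared within a day.

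Library totals ran from 1.24 to 47.1 M counts, with Day 5 medians of 8.9, 10.1 and 9.4 M in the non-diabetic vehicle, diabetic vehicle and FGF1 groups. No libraries held identical counts. All 13 hypothalamic neuron markers in the table were detected in each group, with summed levels from 452.7 to 1792 CPM (normalized counts in a library scaled to 1 M). Several libraries stood apart. FGF1 replicate 17 of Day 1 had the lowest total, and 2 FGF1 libraries of Day 5 were far deeper than the rest of their group, one with 30009258 counts against a median of 9411647. Vehicle replicate 16 of Day 42 held 160.4 CPM of ependymal markers against 75.83 to 106.5 CPM in its group. FGF1 replicate 11 of Day 42 held 1074 CPM of cortex and hippocampus markers against 124.9 to 321.0 CPM in the other Day 42 mice, 204.5 CPM of choroid plexus markers against 26.2 to 47.1 CPM, and the fewest hypothalamic neuron transcripts of that day. A vehicle-treated mouse of Day 5, in the group labelled non-diabetic, held 421.8 CPM of microglia markers against 260.0 to 278.4 CPM in the rest of its group, and is called the microglia-rich vehicle mouse. The values of the 4 genes and the counts over gene lists were also computed without these libraries, and the likeness between genes was not.

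The 4 genes are of different kinds. A2m encodes alpha-2-macroglobulin, a secreted protein that traps proteases of all classes in a cage closed by their own cut, after which the complex is taken up through the receptor LRP1. Kirrel2 encodes an immunoglobulin-domain membrane protein of the nephrin family, known from cell contacts of the kidney filter and the pancreatic islet. Slc13a5 encodes a sodium-coupled transporter that brings citrate from outside the cell into the cytosol, where citrate feeds fatty acid and sterol synthesis, and inherited loss of the human transporter causes epilepsy in infancy. 2900052N01Rik is annotated as a long intergenic non-coding RNA, and no role is given for it here.

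In the GENCODE annotation of GRCm38, A2m lies at chr6:121635376-121679227 on the plus strand, Kirrel2 at chr7:30447534-30457690 on the minus strand, Slc13a5 at chr11:72241989-72267222 on the minus strand and 2900052N01Rik at chr9:46913493-46927366 on the plus strand. Their exons cover 7021, 3939, 4940 and 3235 bases. Exons of Slc13a5 share 473 bases with 1700051A21Rik on the opposite strand, which was not analysed here. The closest relative of A2m by transcript sequence was Mug1, with 75.1% identity over 2257 bases, and no stretch of A2m matched another gene at 98% identity or more. Kirrel2 and 2900052N01Rik matched no other gene.

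Promoter windows are shown for the 3 genes that fell, to see which short motifs they share. The promoter set used held no window for A2m, so A2m was not searched for motifs. Each runs from 250 bases before to 50 bases after a RefSeq start site (GRCm38.p6), 5′ to 3′ on the strand of the gene, and Slc13a5 has 2 annotated starts. Capitals mark GGGCGG (the core of an SP1 site) and CCAAT, on either strand.
Kirrel2, chr7:30457466-30457765, minus strand: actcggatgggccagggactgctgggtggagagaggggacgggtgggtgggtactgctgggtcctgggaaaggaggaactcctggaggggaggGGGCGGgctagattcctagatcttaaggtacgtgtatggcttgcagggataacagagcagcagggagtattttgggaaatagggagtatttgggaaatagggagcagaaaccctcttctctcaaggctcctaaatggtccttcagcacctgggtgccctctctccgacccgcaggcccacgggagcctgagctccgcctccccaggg
Slc13a5, first start, chr11:72267112-72267411, minus strand: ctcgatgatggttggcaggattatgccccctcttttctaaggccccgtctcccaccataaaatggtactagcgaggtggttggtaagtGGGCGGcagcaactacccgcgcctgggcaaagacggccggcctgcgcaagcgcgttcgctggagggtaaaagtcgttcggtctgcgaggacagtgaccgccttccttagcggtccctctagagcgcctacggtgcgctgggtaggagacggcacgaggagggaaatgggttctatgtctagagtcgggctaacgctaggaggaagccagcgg
Slc13a5, second start, chr11:72266555-72266854, minus strand: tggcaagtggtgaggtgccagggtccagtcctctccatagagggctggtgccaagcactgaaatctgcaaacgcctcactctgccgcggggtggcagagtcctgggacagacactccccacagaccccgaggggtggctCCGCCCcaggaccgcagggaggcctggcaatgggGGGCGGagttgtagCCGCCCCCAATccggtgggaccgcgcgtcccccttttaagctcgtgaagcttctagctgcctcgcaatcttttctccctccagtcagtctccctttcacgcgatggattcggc
2900052N01Rik, chr9:46913353-46913652, plus strand: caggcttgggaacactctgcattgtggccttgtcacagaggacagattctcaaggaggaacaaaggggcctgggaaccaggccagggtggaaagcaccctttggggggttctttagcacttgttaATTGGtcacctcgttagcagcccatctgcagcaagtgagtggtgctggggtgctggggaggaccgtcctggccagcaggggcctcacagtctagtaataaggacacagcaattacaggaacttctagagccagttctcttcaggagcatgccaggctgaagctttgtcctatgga

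The windows were unlike each other. GGGCGG was present in 3 of the 4 windows, that of Kirrel2 and both of Slc13a5, against 35.7% of 32851 mouse promoter windows of the same length. Those windows were richer in G and C (59.7%, 60.3% and 63.7%) than the median window (52.7%), and the window of 2900052N01Rik held 54.7%. The count was not compared with windows of like G and C content. CCAAT was present in 2 of 4, the second start of Slc13a5, where it adjoins a GGGCGG on the other strand, and 2900052N01Rik, against 37.4% of all windows. A STAT motif (TTCNNNGAA, 8.3% of all windows), an AP-1 motif (TGANTCA, 7.81%), an E-box (CACGTG, 7.15%) and an ETS motif (CGGAAGT, 6.42%) were found in none of them, on either strand. The Slc13a5 windows held 25 and 17 CpG dinucleotides, the Kirrel2 window 8 and the 2900052N01Rik window 2, where the median window holds 7. These are matches of letters and say nothing of binding.

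A2m was about 4 times as abundant after FGF1 on Day 1 and did not keep this level to Day 42. On Day 1 the 4 vehicle-treated mice had 19.3, 19.4, 20.6 and 24.02 CPM, and the 10 FGF1-treated mice ran from 71.3 through a median of 84.6 to 110.0 CPM. Every FGF1-treated mouse lay far above every vehicle-treated mouse. The fold change on Day 1 was 4.10 (log2 FC = 2.04 ± 0.16 SE, adjusted p = 2.34e-14, edgeR), which placed A2m at rank 143 of the 14221 genes ordered from the largest rise. An exact two-sided permutation test of the same mice gave p = 0.000999, the smallest value that 10 against 4 mice allow. On Day 1, 11.5% of all genes were called higher at an adjusted p under 0.05 and an absolute log2 FC above 0.5, and in 7.56% all FGF1-treated mice lay above all vehicle-treated mice. In bulk tissue, a change in the number of cells of a type and a change in the RNA per cell cannot be told apart.

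On Day 5 the level of A2m was 10.2, 14.1 and 22.9 CPM (lowest, median and highest) in vehicle-treated mice labelled non-diabetic and 13.7, 17.5 and 23.99 CPM in those labelled diabetic. In FGF1-treated mice it was 48.4, 53.7 and 73.0 CPM, above all mice of both vehicle groups. The log2 FC was 1.97 ± 0.14 against the non-diabetic and 1.73 ± 0.14 against the diabetic vehicle group, values that share the FGF1-treated mice. From the largest rise, A2m was at rank 1 against the non-diabetic but at rank 6 against the diabetic vehicle group. In the comparison with the non-diabetic group 1.31% of genes were called higher and in 2.38% the FGF1-treated mice all lay above. The vehicle groups overlapped in A2m, with a log2 difference of 0.24 ± 0.15, diabetic minus non-diabetic.

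On Day 42 vehicle-treated mice had 18.97, 26.98, 27.003, 27.55 and 39.7 CPM of A2m, and FGF1-treated mice 17.3, 20.9, 22.997, 23.7 and 24.1 CPM. The groups overlapped and the FGF1-treated mice were, on average, the lower. The log2 FC was −0.37 ± 0.16 (95% interval −0.67 to −0.06), with an unadjusted p of 0.0234 and an adjusted p of 0.793 in edgeR. It was −0.21 (adjusted p = 0.749, edgeR) without vehicle replicate 16, the mouse with 39.7 CPM, and ran from −0.48 to −0.21 over all alternatives. The exact permutation p was 0.111, where 5 against 5 mice allow 0.00794. On Day 42 edgeR called 0.0% of genes in either direction (0 of 14221, and 0 with DESeq2), while 776 genes, or 5.46%, had an unadjusted p under 0.05.

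Kirrel2 was the least abundant of the 4 genes and fell on Day 1 to 32.2% of the vehicle level. Vehicle-treated mice of Day 1 had 3.38, 3.68, 4.403 and 4.54 CPM, and FGF1-treated mice ran from 0.704 through a median of 1.29 to 2.44 CPM. The highest FGF1-treated mouse, replicate 17, had only 3 counts of Kirrel2 in the shallowest library, and it too lay below all vehicle-treated mice. Kirrel2 was 3.11-fold lower (log2 FC = −1.64 ± 0.21, adjusted p = 1.83e-08, edgeR), at rank 109 from the largest fall. The exact permutation p was 0.000999. On Day 1, 8.05% of genes were called lower, and in 6.81% all FGF1-treated mice lay below.

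On Day 5 Kirrel2 was 2.74, 5.56 and 6.96 CPM (lowest, median and highest) in non-diabetic vehicle, 5.18, 6.02 and 6.81 CPM in diabetic vehicle and 0.977, 1.73 and 2.55 CPM in FGF1-treated mice. The FGF1-treated mice lay below both vehicle groups, with the gap to the non-diabetic group set by the microglia-rich vehicle mouse at 2.74 CPM, since its next mouse had 5.23 CPM. The log2 FC was −1.68 ± 0.21 against the non-diabetic group, −1.80 without that mouse and −1.77 ± 0.21 against the diabetic group. On Day 5, 0.232% of genes were called lower and in 1.55% all FGF1-treated mice lay below the non-diabetic vehicle group.

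On Day 42 Kirrel2 was 1.53, 1.92, 2.07, 3.02 and 3.78 CPM in vehicle-treated and 1.94, 2.10, 2.54, 3.10 and 3.67 CPM in FGF1-treated mice, and the groups overlapped. The log2 FC was 0.12 ± 0.24 (95% interval −0.35 to 0.58, adjusted p of 1.0 in edgeR), with an exact permutation p of 0.595. Without FGF1 replicate 11, the mouse rich in cortex and choroid plexus transcripts and the highest in Kirrel2 among the FGF1-treated, it was −0.01. The vehicle level itself differed between days, with a mean of 4.00 CPM on Day 1, 5.63 and 5.97 CPM on Day 5 and 2.46 CPM on Day 42, so that the FGF1-treated mice of Day 5 overlapped the vehicle-treated mice of Day 42.

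Slc13a5 fell on Day 1 to 39.0% of the vehicle level. On Day 1 it was 15.1, 15.5, 15.9 and 17.6 CPM in vehicle-treated mice, and ran from 3.93 through a median of 6.18 to 10.2 CPM in FGF1-treated mice. All 10 FGF1-treated mice lay below. Slc13a5 was 2.57-fold lower (log2 FC = −1.36 ± 0.15, adjusted p = 6.61e-10, edgeR), at rank 175 from the largest fall, with an exact permutation p of 0.000999.

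On Day 5 Slc13a5 was 8.75, 13.7 and 16.2 CPM in non-diabetic vehicle, 12.5, 13.5 and 15.0 CPM in diabetic vehicle and 3.51, 6.0003 and 7.44 CPM in FGF1-treated mice, lowest, median and highest. The FGF1-treated mice lay below both vehicle groups, which overlapped each other. The log2 FC was −1.27 ± 0.15 against the non-diabetic and −1.38 ± 0.15 against the diabetic vehicle group. On Day 42 the vehicle-treated mice had 12.5, 13.6, 13.8, 14.3 and 15.1 CPM and the FGF1-treated mice 11.2, 12.6, 14.6, 15.0 and 15.2 CPM, and the groups overlapped. The Day 42 log2 FC was −0.02 ± 0.17 (95% interval −0.35 to 0.31, adjusted p of 1.0 in edgeR), with an exact permutation p of 0.849. Its 95% interval leaves out a fall of the Day 1 size.

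2900052N01Rik fell on Day 1 to 64.7% of the vehicle level, beside 39.2% on Day 5, a difference between days that was not tested since Day 5 chose the gene. On Day 1 vehicle-treated mice had 78.5, 92.5, 92.6 and 127.9 CPM, and FGF1-treated mice ran from 43.7 through a median of 64.2 to 77.4 CPM. The groups came within about 1 CPM of each other without overlap. The RNA was 1.55-fold lower (log2 FC = −0.63 ± 0.13, adjusted p = 0.000165, edgeR), at rank 845 from the largest fall, with an exact permutation p of 0.000999. The call rested on vehicle replicate 28, the mouse with 127.9 CPM, since without it the log2 FC was −0.47 (adjusted p = 0.00813, edgeR) and missed the threshold on the fold change.

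On Day 5 2900052N01Rik was 46.0, 62.5 and 72.8 CPM in non-diabetic vehicle, 58.1, 62.8 and 74.9 CPM in diabetic vehicle and 20.4, 23.6 and 28.98 CPM in FGF1-treated mice. The lowest vehicle-treated mouse was again the microglia-rich one, and it still lay above all FGF1-treated mice. The log2 FC was −1.35 ± 0.13, −1.41 without that mouse and −1.43 ± 0.12 against the diabetic group. On Day 42 vehicle-treated mice had 63.7, 113.3, 120.1, 124.1 and 126.6 CPM and FGF1-treated mice 62.4, 89.2, 102.3, 106.4 and 116.4 CPM, each group with 1 low mouse. The Day 42 log2 FC was −0.20 ± 0.15 (95% interval −0.49 to 0.09, adjusted p of 1.0 in edgeR), with an exact permutation p of 0.437.

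The same fits were run without the libraries that stood apart. Without FGF1 replicate 17 the Day 1 log2 FC was 2.02 for A2m, −1.65 for Kirrel2, −1.37 for Slc13a5 and −0.63 for 2900052N01Rik, all still past the thresholds (highest adjusted p = 0.000233, edgeR). Without FGF1 replicate 11 that of Day 42 was −0.35 for A2m, −0.05 for Slc13a5 and −0.08 for 2900052N01Rik, and that of Kirrel2, at −0.01, changed sign, with no gene of the 4 past the thresholds either way. Without vehicle replicate 16 the Day 42 values of Kirrel2, Slc13a5 and 2900052N01Rik were 0.33, −0.06 and −0.34, and none passed. On Day 5 the values without the microglia-rich vehicle mouse were 2.02 for A2m and −1.29 for Slc13a5, and without the 2 deepest FGF1 libraries 1.87 for A2m and −1.16 for Slc13a5.

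**Figure D1:**
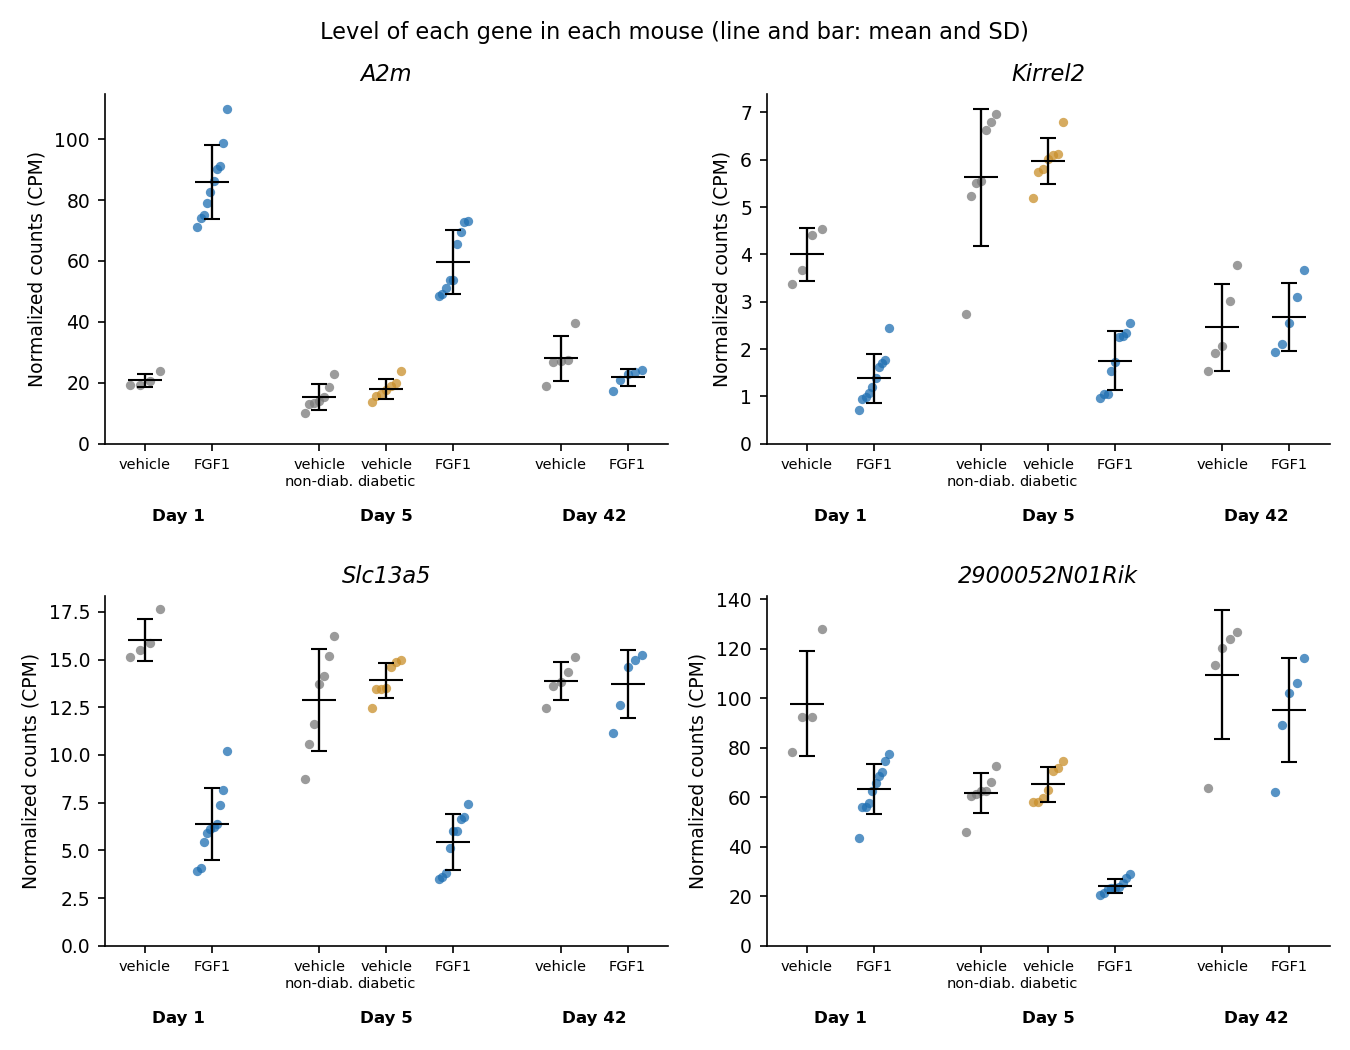
Normalized counts (CPM, linear axis from 0) of each gene in each of 47 mice, by treatment and day, with the group mean and SD. FGF1-treated mice (blue) are separate from vehicle-treated mice (grey, and orange for those labelled diabetic) on Days 1 and 5 and overlap them on Day 42. 2900052N01Rik in FGF1-treated mice is lower on Day 5 (20.4 to 28.98 CPM) than on Day 1 (43.7 to 77.4 CPM). It is also lower in non-diabetic vehicle of Day 5 (mean 61.7 CPM) than in vehicle of Day 1 (97.9 CPM), and levels of different days carry the preparation with them.

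The FGF1 effect was compared between Days 1 and 42 as a difference of log2 fold changes in the same fit. For A2m the difference was 2.40 ± 0.22 (adjusted p = 6.9e-12, edgeR), for Kirrel2 −1.75 ± 0.32 (adjusted p = 4.53e-05, edgeR) and for Slc13a5 −1.34 ± 0.23 (adjusted p = 1.73e-05, edgeR). For 2900052N01Rik it was −0.43 ± 0.20, which missed the thresholds (adjusted p = 0.114, edgeR). Without FGF1 replicate 11 of Day 42, its lowest mouse of that group, the difference for 2900052N01Rik was −0.55 and passed (adjusted p = 0.0312, edgeR). Vehicle replicate 16 was the low mouse of the other Day 42 group (63.7 CPM), and without it the Day 42 effect was −0.34 rather than −0.20. Over all alternatives the difference for 2900052N01Rik ran from −0.55 to −0.28, so it turned on single mice in both directions. Of all genes, 9.81% were called with a higher and 6.59% with a lower effect on Day 1 than on Day 42.

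**Figure D2:**
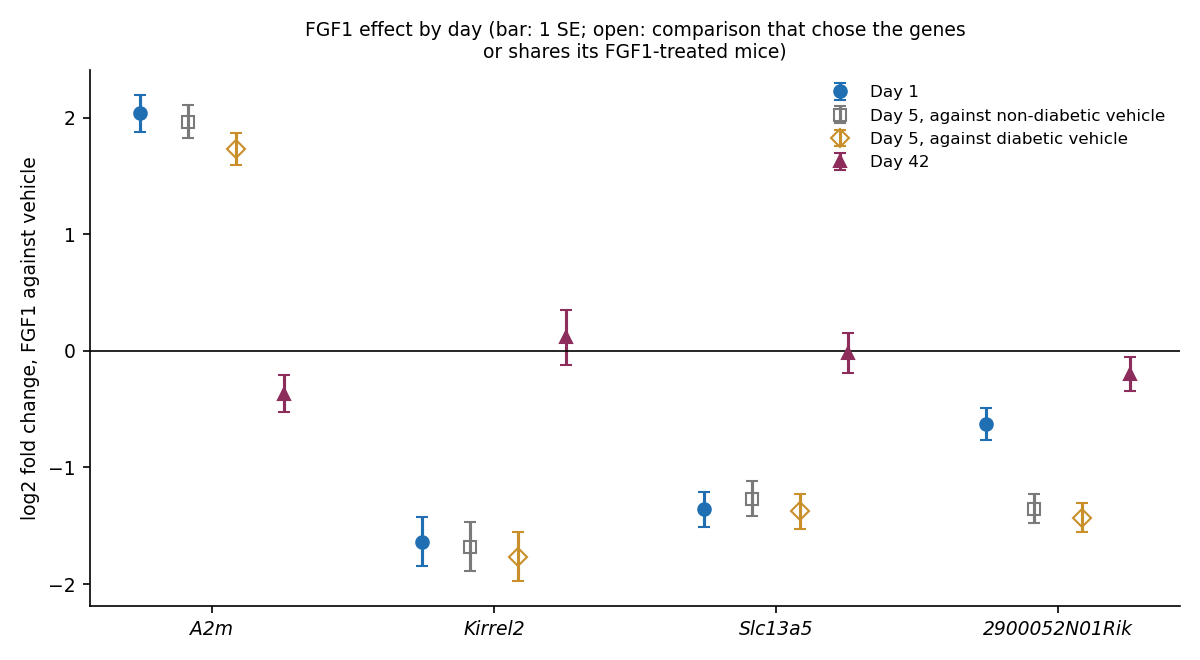
Log2 fold change of FGF1-treated against vehicle-treated mice by day, with 1 SE, from the edgeR fit of all 47 libraries. Open symbols are the Day 5 comparisons, of which the one with non-diabetic vehicle chose the genes. Day 1 values of A2m (2.04), Kirrel2 (−1.64) and Slc13a5 (−1.36) lie near the Day 5 values, that of 2900052N01Rik (−0.63) is nearer to 0, and Day 42 values lie between −0.37 and 0.12.

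Group levels were ordered for each gene by the mean. For A2m the order ran from 15.3 CPM in non-diabetic vehicle of Day 5 to 28.03 CPM in vehicle of Day 42, a run of 5 groups in which each overlapped the next, and then, after a gap, to 59.7 CPM and 85.9 CPM in FGF1-treated mice of Days 5 and 1, which overlapped each other. For Slc13a5 FGF1-treated mice of Days 5 and 1 were lowest (5.44 and 6.39 CPM), and the highest group was vehicle of Day 1 (16.04 CPM), which lay above the next, diabetic vehicle of Day 5 (13.9 CPM), without overlap. For 2900052N01Rik FGF1-treated mice of Day 5 were lowest at 24.2 CPM and stood apart from all others. FGF1-treated mice of Day 1 (63.3 CPM) lay between the vehicle groups of Day 5 (61.7 and 65.2 CPM), and the vehicle groups of Days 1 and 42 were higher (97.9 and 110 CPM). For Kirrel2 each group overlapped the next, from 1.38 CPM in FGF1-treated mice of Day 1 to 5.97 CPM in diabetic vehicle of Day 5. Levels of different days carry the preparation with them, and its part was not tested.

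Levels of different genes were compared only per kilobase of exon. In vehicle-treated mice of Day 1 the mean was 30.2 CPM per kilobase for 2900052N01Rik, 3.25 for Slc13a5, 2.97 for A2m and 1.02 for Kirrel2. In FGF1-treated mice of Day 1 these means were 19.6 CPM per kilobase for 2900052N01Rik, 12.2 for A2m, 1.29 for Slc13a5 and 0.351 for Kirrel2. The non-coding RNA was thus the most abundant of the 4 per length in both groups of Day 1, but not in FGF1-treated mice of Day 5, where A2m had a mean of 8.50 and 2900052N01Rik 7.47 CPM per kilobase. On Day 1 A2m and Slc13a5, which were near each other with vehicle, were far apart with FGF1. Kirrel2 rested on the fewest reads, with medians of 44.5 raw counts per FGF1-treated and 159.5 per vehicle-treated library on Day 1, and of 18 and 56 on Day 5 (non-diabetic vehicle).

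The next rises on Day 5 after A2m (1.97) were those of Bmp4, a secreted growth factor, at 1.85 and of Gpr17, a receptor of differentiating oligodendrocyte precursors, at 1.80. Among genes that met every condition of the choice, the next fall after Slc13a5 (−1.27) was that of Hsd11b1, which regenerates active glucocorticoid, at −1.14, and then of Gipr, the receptor of an incretin hormone, at −0.93. Between Hsd11b1 and Gipr, 4 other genes passed the thresholds at −1.08 to −0.95 without meeting every condition. The fall of 2610028E06Rik (−1.28) was as large as that of Slc13a5, but its mice overlapped between groups and its mean was 47.4 normalized counts. Under the conditions of the choice, 103 genes were higher and 12 lower on Day 5.

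Within groups, no pair of members passed after adjustment in the mice that the choice did not use. The SD of A2m was 14.1% of the mean in FGF1-treated mice of Day 1 and 17.4% in those of Day 5, while for Kirrel2 these were 37.1% and 35.8%. In the 24 mice of Days 1 and 42, which the choice did not use, none of the 6 pairs of genes passed after the group means were removed. The largest correlation over these 24 was that of Kirrel2 and Slc13a5 (Pearson r = 0.36, permutation p = 0.132, Spearman rho = 0.39, permutation p = 0.0885, adjusted p = 0.606 and 0.531 over the 6 pairs, and r = 0.34 without the 2 most extreme mice). In the same mice A2m and Slc13a5 had r = −0.11 (permutation p = 0.58) and rho = −0.08 (permutation p = 0.714, adjusted p = 0.696 and 0.857), with r = −0.05 without the 2 most extreme mice. In the 14 mice of Day 1 alone, A2m and Kirrel2 had a larger r of 0.60 (permutation p = 0.0357) and rho of 0.58 (permutation p = 0.0542, adjusted p = 0.214 and 0.325), which fell to r = 0.38 without the 2 most extreme mice. In the 23 mice of Day 5, whose values chose the genes, A2m and Slc13a5 varied in opposite directions within groups, at r = −0.69 and rho = −0.67, or r = −0.66 without the 2 most extreme mice, which is given without a test. Among the 9 FGF1-treated mice of Day 5, the 4 with the most A2m (65.7 to 73.0 CPM) were the 4 with the least Slc13a5 (3.51 to 5.12 CPM). The 2 highest in A2m (72.7 and 73.0 CPM) were the 2 deepest libraries of the group. Without those 2, r was −0.67 and rho −0.56 over the 21 other mice of Day 5.

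**Figure D3:**
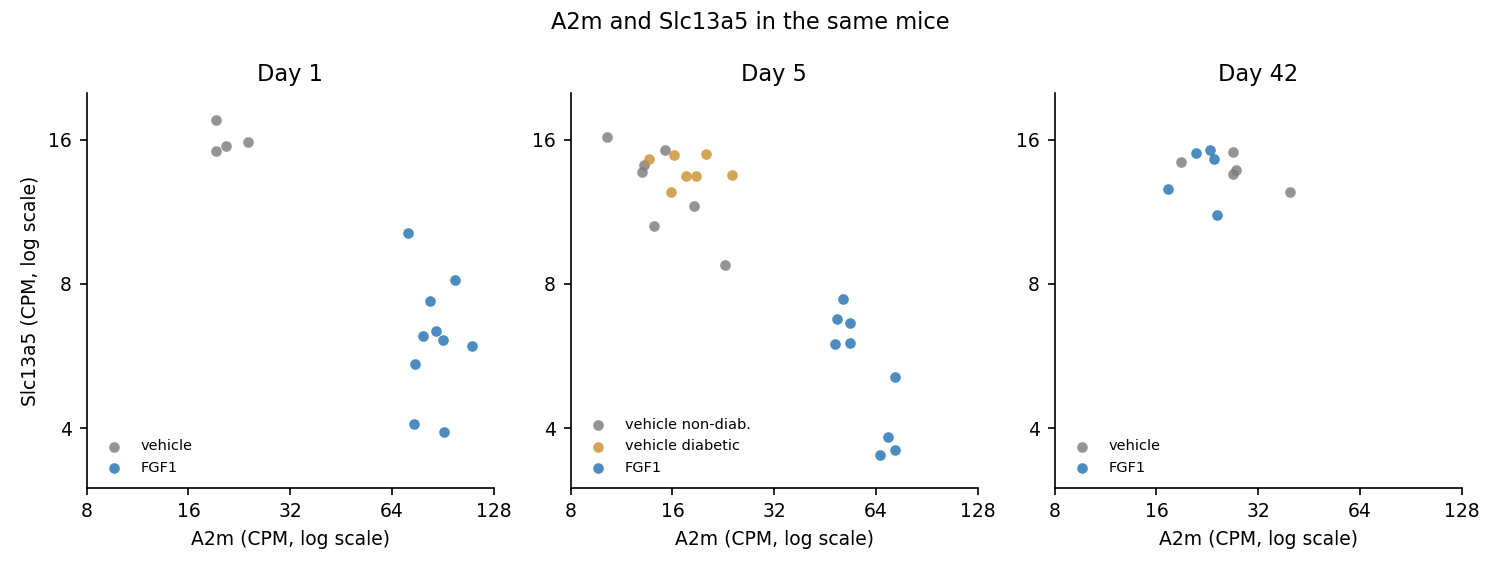
A2m against Slc13a5 in the same mice on each day (CPM, both axes on a log scale), coloured by treatment. On Days 1 and 5 FGF1-treated mice sit to the lower right, with high A2m and low Slc13a5. Within the groups of Day 5 the points fall from left to right (r = −0.69), on Day 1 they do not (r = −0.07), and on Day 42 both treatments share 1 cloud (r = −0.26).

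Genes most like each member were sought over the 47 libraries with the day mean removed, among 14123 genes with a mean of at least 1 CPM, and these correlations hold the FGF1 effect that chose the members. A2m was most like Olfml3 (r = 0.89, rho = 0.87), a secreted olfactomedin-like protein, Ctnna1 (r = 0.88, rho = 0.88), the alpha-catenin of adherens junctions, Gfap (r = 0.87, rho = 0.84), the astrocyte filament protein, Clu (r = 0.87, rho = 0.89), a secreted chaperone, and Map4k4 (r = 0.86, rho = 0.86). The lowest r of any gene with A2m was that with Slc13a5 at −0.90, rank 14122 of the 14122 others. Among the genes most like Kirrel2 were Mfsd2a (r = 0.83, rho = 0.82), a lipid transporter of the blood-brain barrier, Arrdc2 (r = 0.81, rho = 0.85), Slc13a5 (r = 0.81, rho = 0.84) and Sumo3 (r = 0.78, rho = 0.82).

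Slc13a5 was most like Fads1 (r = 0.89, rho = 0.87), a fatty acid desaturase, with Tlcd1 (r = 0.85, rho = 0.87), Sumo3 (r = 0.83, rho = 0.85) and Scd2 (r = 0.82, rho = 0.81), another desaturase, also among the closest. Fads1 was also the first with the group mean removed (r = 0.69, rho = 0.58), followed by Fads2 (r = 0.59, rho = 0.43), a second desaturase of the same pathway, Ntsr2 (r = 0.58, rho = 0.42), Ptn (r = 0.56, rho = 0.46) and Tmem144 (r = 0.55, rho = 0.52). 2900052N01Rik was most like Cdkl3 (r = 0.82, rho = 0.84), Hmgb3 (r = 0.80, rho = 0.81), Itih3 (r = 0.80, rho = 0.81), Trub1 (r = 0.80, rho = 0.82) and Tmem18 (r = 0.80, rho = 0.74). With the group mean removed it was most like Vwc2l (r = 0.79, rho = 0.69), Rragb (r = 0.74, rho = 0.56), Capza1 (r = 0.73, rho = 0.59), Heph (r = 0.73, rho = 0.63) and Wnk3 (r = 0.73, rho = 0.55). These values include the low mouse of either Day 42 group (62.4 CPM with FGF1 and 63.7 CPM with vehicle) and were not recomputed without these mice. For A2m the genes most alike with the group mean removed were Appl2 (r = 0.62, rho = 0.70), Irx2 (r = 0.59, rho = 0.47), Aox1 (r = 0.58, rho = 0.59), Chd7 (r = 0.56, rho = 0.44) and Tal1 (r = 0.54, rho = 0.44), and for Kirrel2 Arrdc2 (r = 0.53, rho = 0.41), Oas1c (r = 0.51, rho = 0.46), Gstm5 (r = 0.50, rho = 0.51), Gpr6 (r = 0.49, rho = 0.47) and Hif3a (r = 0.49, rho = 0.44). Arrdc2 and Fads1 were thus the genes found near a member both ways.

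Relatives of A2m in the table were 4, of which 2 were called higher on Day 1 and 2 on Day 5, against 11.5% and 1.31% of all genes. Cd109, a membrane-anchored member of the family, rose from 9.16 to 78.9 CPM on Day 1 (log2 FC = 3.11 ± 0.20, adjusted p = 1.17e-17, edgeR) and from 8.11 to 16.3 CPM on Day 5 (1.01 ± 0.17, adjusted p = 4.61e-05, edgeR). Complement C3, which shares the fold, rose on Day 1 (1.01 ± 0.37, adjusted p = 0.0226, edgeR), while on Day 5 its sign turned with the control, at −0.71 ± 0.33 (adjusted p = 0.261) against non-diabetic vehicle, 0.34 ± 0.22 (adjusted p = 0.493) without the microglia-rich vehicle mouse and 0.60 ± 0.36 (adjusted p = 0.337, all edgeR) against diabetic vehicle. Complement C4b passed on Day 5 (0.66 ± 0.19, adjusted p = 0.033, edgeR) and had 0.50 ± 0.22 on Day 1 (adjusted p = 0.064). Without the 2 deepest FGF1 libraries its Day 5 value was 0.66 and missed (adjusted p = 0.0684, edgeR). Pzp, another secreted member, was at 0.243 and 0.154 CPM in FGF1-treated and vehicle-treated mice of Day 1, with a log2 FC of 0.85 ± 0.59 (adjusted p = 0.244), and at 4.95 and 3.39 CPM on Day 5 (0.55 ± 0.32, adjusted p = 0.422, edgeR).

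The receptor side of A2m did not pass on Day 1, 5 or 42. Lrp1, which takes up the complex of A2m and protease, had means of 375.1 CPM with FGF1 and 318.1 CPM with vehicle on Day 1 (log2 FC = 0.24 ± 0.16, adjusted p = 0.238, edgeR), and on Day 5 its change was 0.01 ± 0.14 (adjusted p = 0.993). Its chaperone Lrpap1 had −0.17 ± 0.08 on Day 1 and −0.07 ± 0.07 on Day 5. Hspa5, an endoplasmic reticulum chaperone that can also bind A2m at the cell surface, had 0.01 ± 0.08 and 0.05 ± 0.07. By an unadjusted p under 0.05, 1 of these 3 genes passed on Day 1, 0 on Day 5 and 0 on Day 42, and DESeq2 called 0 on each of these days.

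Relatives of Kirrel2 in the table were Kirrel and Kirrel3, the other nephrin-like adhesion proteins, and neither passed. Kirrel had a mean of 26.73 CPM with FGF1 and 21.01 CPM with vehicle on Day 1 (log2 FC = 0.34 ± 0.12, adjusted p = 0.0153, edgeR, below the fold threshold), and Kirrel3 44.9 and 44.0 CPM (0.03 ± 0.10, adjusted p = 0.842). For Day 5 they had 0.22 ± 0.12 and −0.11 ± 0.09. Relatives of Slc13a5 were Slc13a1 and Slc13a4, which carry sulfate, and Slc13a3, which carries dicarboxylates. Slc13a4 fell on Day 1, from a mean of 19.9 to 5.21 CPM (log2 FC = −1.96 ± 0.46, adjusted p = 0.000523, edgeR), and had 0.59 ± 0.44 on Day 5 (adjusted p = 0.573). Slc13a3 had 0.46 ± 0.21 and 0.22 ± 0.19 on Days 1 and 5, and Slc13a1, at 0.353 and 0.436 CPM on Day 1, had −0.19 ± 0.37 and −0.53 ± 0.29, and neither passed. Against the diabetic vehicle group of Day 5, Slc13a1 was called lower, at means of 1.68 and 3.05 CPM (−0.83 ± 0.28, adjusted p = 0.0474, edgeR).

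**Figure D4:**
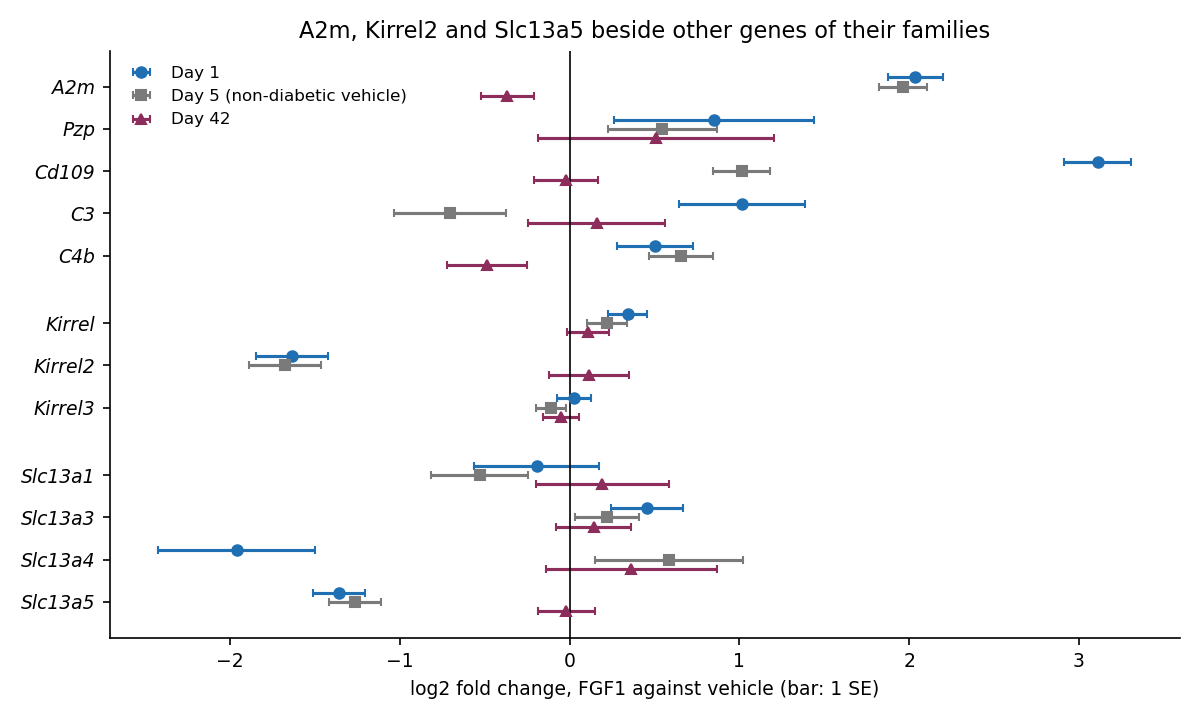
Log2 fold change of FGF1 against vehicle, with 1 SE, for A2m, Kirrel2 and Slc13a5 and the other genes of their families in the table, on Days 1, 5 (non-diabetic vehicle) and 42. A2m is accompanied by Cd109 (3.11 on Day 1 and 1.01 on Day 5), whereas Kirrel (0.34) and Kirrel3 (0.03) stay near 0 on Day 1 and Slc13a4 is low on Day 1 (−1.96) but not on Day 5 (0.59).

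Pathway lists around the members were counted next. Of 10 proteases that alpha-2-macroglobulin can bind, 8 rose and 0 fell on Day 1, when 11.5% of all genes were called higher and 8.05% lower, with a median log2 FC of 1.56 against 0.01 over all genes. These included Adamts1 (2.55), an extracellular matrix protease, Plat and Plau, the plasminogen activators (1.43 and 4.18), and Bmp1 (1.69), a procollagen protease. On Day 5 only Plat rose (0.62 ± 0.09, adjusted p = 9.21e-06, edgeR) and 9 did not pass (1.31% of all genes were called higher). Without the 2 deepest FGF1 libraries 2 of the 10 passed, Plat and Mmp2 (0.61, adjusted p = 0.0395, edgeR). With all libraries Mmp2 had 0.51 ± 0.17 (adjusted p = 0.0725, edgeR). Against the diabetic vehicle group Adamts4 rose (0.58 ± 0.17, adjusted p = 0.0236, edgeR), and Plat (0.50 ± 0.09) lay just under the fold threshold. Of 12 acute-phase and STAT3 genes, 10 rose and 0 fell on Day 1 (9 with DESeq2, 11.5% of all genes higher, list median 1.94), and those with the smallest adjusted p were Serpina3n, another secreted protease inhibitor (3.84), Socs3, the feedback inhibitor of STAT3 signalling (4.50), Stat3 itself (1.69) and Timp1, an inhibitor of matrix metalloproteases (7.57). On Day 5, 4 of the 12 rose (1.31% of all genes), Serpina3n (1.23), Il6st (0.51), Osmr (1.04) and Timp1 (1.34), with a list median of 0.34 against −0.01 over all genes. The call of Timp1 was lost without the microglia-rich vehicle mouse (adjusted p = 0.0831, edgeR) and without the 2 deepest FGF1 libraries (adjusted p = 0.0916, edgeR). Its log2 FC stayed near 1.34, at 1.265 and 1.352. Set beside the Day 1 and Day 5 values of A2m (2.04 and 1.97), these were 3.84 and 1.23 for Serpina3n and 7.57 and 1.34 for Timp1, and the difference between days was not tested.

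Of 19 genes that handle citrate or make lipid from it, 1 fell on Day 1, where 8.05% of all genes did, Acacb (−0.59 ± 0.16, adjusted p = 0.00225, edgeR), which makes the malonyl-CoA that restrains fatty acid oxidation, and 18 did not pass, 9 of the 19 having an unadjusted p under 0.05, with a list median of 0.04. Aco1, a cytosolic aconitase, had 0.49 ± 0.07 on Day 1, just under the fold threshold, and passed at 0.51 without FGF1 replicate 17, and Me1, the malic enzyme that makes NADPH, had 0.38 ± 0.09. On Day 5, 0 passed in edgeR and 0 in DESeq2, 5 had an unadjusted p under 0.05, and the list median was −0.07. Acly, which splits cytosolic citrate, had 0.30 ± 0.06 on Day 1 and −0.19 ± 0.05 on Day 5, below the fold threshold on both days. Of 13 partners of nephrin-type proteins, 5 rose on Day 1 (6 with DESeq2, 11.5% of all genes higher), Iqgap1 (0.98), Synpo (1.71), Actn4 (0.95), Podxl (0.58) and Nck2 (0.62). The other 8 did not pass, and the list median was 0.14. Below the fold threshold, at an adjusted p under 0.05 in edgeR, Cd2ap (−0.49 ± 0.11), Magi2 (−0.35) and Cask (−0.35) were lower, and Nck1 (0.45) and Fyn (0.14) higher. On Day 5, 1 rose, the tyrosine kinase Fyn (0.65 ± 0.05, adjusted p = 3.58e-14, edgeR), beside 1.31% of all genes. Against the diabetic vehicle group 2 rose, Fyn (0.59) and, at the fold threshold, Podxl (0.50), beside 2.36% of all genes. On Day 42, 0 of the 66 genes of these family and pathway lists passed in edgeR and 0 in DESeq2, and 3 had an unadjusted p under 0.05.

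Neighbours on the chromosome were read to see whether a member moved alone. Within 200 kb, 1 of 8 annotated genes was in the table for A2m, 19 of 42 for Kirrel2, 9 of 18 for Slc13a5 and 0 of 5 for 2900052N01Rik. The nearest in the table to A2m was Iqsec3, 161.7 kb to the left, with a Day 1 log2 FC of −0.18. Kirrel2 starts 0.6 kb from Nphs1, the nephrin gene, which was not analysed here, and its nearest neighbour in the table on the left was Aplp1 at 2.0 kb (0.06 on Day 1 and −0.07 on Day 5), followed on that side by Nfkbid at 18.8 kb (0.87 and −0.30) and Tyrobp at 29.9 kb (0.85 and 0.50). The nearest on the right was Arhgap33 at 64.5 kb (0.25 and 0.10). For Slc13a5 the nearest on the left was Med31 at 26.4 kb (−0.01 and −0.08), followed by Txndc17 (0.27 and 0.14), and on the right Xaf1 at 34.4 kb (−0.44 and 0.20). Of the 29 neighbours in the table, 4 rose and 1 fell on Day 1, against 11.5% called higher and 8.05% called lower over all genes, so the count is no result about the neighbours. Nfkbid, Tyrobp and Proser3 (0.83), near Kirrel2, rose, Mybbp1a near Slc13a5 rose by 0.55, and the log2 FC of Smtnl2 near Slc13a5 was −0.76. In the Day 5 comparison, 0 of the 29 passed in edgeR and 0 in DESeq2, with 4 at an unadjusted p under 0.05, and 1 of the 29, Tyrobp, passed without the microglia-rich vehicle mouse or without the 2 deepest FGF1 libraries.

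Markers of several cell types moved with FGF1 on the days on which the members did. On Day 1, when 11.5% of all genes were called higher and 8.05% lower, 5 of 8 microglia markers rose and 1 fell (4 called in all with DESeq2), 7 of 8 oligodendrocyte markers fell, and of 10 astrocyte markers 2 rose and 3 fell. Also on Day 1, 2 of 8 oligodendrocyte precursor, 3 of 9 ependymal and 2 of 4 choroid plexus markers fell and 0 rose, while 3 of 9 meningeal fibroblast markers rose and 3 fell, and 2 of 13 hypothalamic neuron markers rose and 3 fell. Of the other lists on that day, tanycyte, endothelial and mural markers had 1 or 2 called in either direction, and in edgeR 0 passed of those of neurons in general, thalamus, cortex and hippocampus, and pituitary. DESeq2 called 2 of the 8 general neuron markers, 3 had an unadjusted p under 0.05 in edgeR, and their summed level in FGF1-treated mice of Day 1 (3100 to 3973 CPM) lay below that of all vehicle-treated mice (4068 to 5021 CPM). Without FGF1 replicate 17, edgeR called 1 of the 8 general neuron markers lower, and 4 rather than 5 microglia markers higher. For thalamus, cortex and hippocampus, and pituitary DESeq2 called 0, and 0 had an unadjusted p under 0.05. On Day 5, 2 of 10 astrocyte, 3 of 8 oligodendrocyte precursor, 2 of 8 oligodendrocyte, 1 of 8 microglia and 4 of 9 meningeal fibroblast markers rose, and 0 fell, against 1.31% of all genes called higher and 0.232% lower. Against the diabetic vehicle group the counts were the same for the first 3 of these lists, but 6 of 8 microglia and 1 of 9 meningeal fibroblast markers rose, 1 of 9 ependymal markers rose and 1 of 10 tanycyte markers fell, against 2.36% of all genes called higher and 0.499% lower. The non-diabetic group is the one with the microglia-rich mouse, and without that mouse 4 of 8 microglia and 1 of 9 meningeal fibroblast markers rose. Summed astrocyte markers were at 5374 to 5884 CPM in FGF1-treated mice of Day 5, above both vehicle groups (4720 to 4922 and 4594 to 5124 CPM), and overlapped on Day 1 (4889 to 6065 against 4684 to 5437 CPM). Summed microglia markers were above vehicle on Day 1 (266.8 to 359.9 against 230.1 to 265.8 CPM) and, on Day 5, above all but the microglia-rich vehicle mouse (329.7 to 401.7 against 260.0 to 421.8 CPM). Summed oligodendrocyte markers were lower on Day 1 (2276 to 4161 against 3633 to 5303 CPM), with overlap, and on Day 5 (6117 to 7013 CPM) above the non-diabetic (4512 to 5974 CPM) but overlapping the diabetic vehicle group (4092 to 6125 CPM). No marker of these lists was at 0 in a whole group. The part of these shifts in the levels of the 4 genes was not tested.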

How the data were processed

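The authors isolated RNA from frozen hypothalamic punches, prepared stranded mRNA libraries and sequenced paired ends. Per the labels and the study's methods, reads were aligned with STAR; the counting program is not given in the sources used here, and the build is named there as GRCh38, a human build. The authors deposited whole-number counts per gene, not normalized, for 14221 genes and 47 libraries. From these, TMM factors and the negative binomial fit of all libraries, in which each of the 7 groups has its own mean, were obtained with edgeR 4.0.16 (R 4.3.3). Its default filter on low counts removed 0 genes. The quasi-likelihood F test was used, with Benjamini-Hochberg adjustment over all genes. A gene was called at an adjusted p under 0.05 with a log2 fold change beyond 0.5 in either direction. CPM are scaled by TMM. For single genes, groups were also compared by exact permutation of log2(CPM + 0.5), two-sided, and correlations between genes by 100000 shuffles within groups. The SE is an approximation, the absolute log2 fold change divided by the square root of F from the edgeR test, and 95% intervals are 1.96 SE to either side. Alternatives were DESeq2 1.42.0, its size factors, other filters, fits of single days and single mice left out. Programs were tested on simulated data.

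The members, gene lists and most comparisons were chosen with earlier results of these data known. Genes named beside the members were at most the 4 smallest adjusted p past the thresholds per list and comparison, all family genes, nearest neighbours, the 5 genes most alike, and the ranks next to the members. Of the genes most alike, 1 is not reported here. Nck1, Nck2, Cd2ap, Magi2, Cask, Mmp2, Acly, Aco1 and Me1 were named after their values were seen. Where nothing states separate litters or batches, p-values measure the spread between these mice. Library totals ran from 1.24 to 47.1 M counts, and Kirrel2 had the fewest counts of the members, down to 3 in the shallowest library.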

Additional observations from a re-analysis of the deposited data

Results flagged for a closer look

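A pair of mice lay far from the rest of their group in the level of a member, among 28 groups of values examined, where chance alone marks about 1 in 20. The microglia-rich vehicle mouse of Day 5 had 2.74 CPM of Kirrel2, against 5.23 to 6.96 CPM in the other mice labelled non-diabetic. It was also the mouse with the most microglia marker RNA of its group. Vehicle replicate 16 of Day 42 had 63.7 CPM of 2900052N01Rik, against 113.3 to 126.6 CPM in its group, and it had the most A2m (39.7 CPM) and Kirrel2 (3.78 CPM) of that group.

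The FGF1 effect differed between Days 1 and 42 by the test of that difference for A2m (log2 difference 2.40), Kirrel2 (−1.75) and Slc13a5 (−1.34).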

How the results depend on the processing

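No paired analysis was possible because the groups share no replicate numbers. On Day 1 the log2 fold change ran from 1.99 to 2.11 for A2m, from −1.71 to −1.57 for Kirrel2 and from −1.41 to −1.31 for Slc13a5 over all alternatives, each past the thresholds throughout. That of 2900052N01Rik ran from −0.72 to −0.47 and was lost only without vehicle replicate 28 (−0.47). On Day 42, where no member passed under any alternative, the sign of small effects turned on single mice: leaving out each in turn gave −0.019 to 0.33 for Kirrel2 and −0.062 to 0.048 for Slc13a5. The Day 1 minus Day 42 difference of 2900052N01Rik ran from −0.55 to −0.28 over all alternatives. With at least 10 counts in every library, which leaves fewer genes to test and drops Kirrel2, 1582 genes were called on Day 1 and 1525 for the difference, against 2776 and 2332. On Day 42, leaving out single mice gave 0 to 31 called genes, 31 without FGF1 replicate 7, against 0. FGF1 replicate 7 held 20.3 CPM of pituitary markers against 2.98 to 8.79 CPM in the other Day 42 mice.

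Within groups, A2m and Slc13a5 had r = −0.44 over all mice, −0.07 on Day 1, −0.26 on Day 42 and −0.11 on both. Pairs whose sign changed were A2m and 2900052N01Rik (−0.18 over all, 0.24 on Day 1), A2m and Kirrel2 (0.08, −0.12 on Day 5), Kirrel2 and Slc13a5 (0.13, −0.083 on Day 5), Kirrel2 and 2900052N01Rik (0.04, −0.66 on Day 42 and −0.21 on Days 1 and 42) and Slc13a5 and 2900052N01Rik (−0.06, 0.23 on Day 42 and 0.018 on Days 1 and 42). The alternatives with Days 1 and 42 only, without the microglia-rich vehicle mouse of Day 5, and of gene lists and of the Day 5 correlation without libraries that stood apart, were chosen after seeing the data. Why single mice decide these values was not tested.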
